A study of Mus musculus with 6 samples.

Results

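CHI3L1 (chitinase-3-like protein 1, also called YKL-40) and 5 genes related to it in family or in binding were followed across 6 LAPC-4 prostate tumors. The 6 genes were taken from 60649 genes by their human Ensembl identifiers. They were CHI3L1 (ENSG00000133048), its relatives CHI3L2 (ENSG00000064886) and CHIT1 (ENSG00000133063), and the binding partners IL13RA2 (ENSG00000123496), TMEM219 (ENSG00000149932) and LGALS3 (ENSG00000131981). CHI3L1 was chosen by its difference between the diets in these same tumors, so its values are a description and carry no test. The other 5 were picked for their known relation to CHI3L1, not for their own values, although results of these data were already known when they were picked.

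LAPC-4 cells come from a human prostate cancer and respond to androgen. They were grown in the flank of male SCID mice, young adults at purchase, which lack functional B and T cells. All mice ate the HiGI diet first and were assigned a Western diet when tumors averaged 200 mm3. In the HiGI (high glycemic index) diet most carbohydrate was sucrose, and in the LoGI (low glycemic index) diet it was Hylon-VII, a starch rich in amylose, with maltodextrin. RNA came from 3 HiGI tumors, numbered 16, 20 and 26, and 3 LoGI tumors, numbered 19, 27 and 28. One cell line and a subset of the mice were therefore sampled, and reads unique to the mouse genome had been removed, so that the host's own transcripts were not the target of the counts. In such bulk tumor RNA, fewer cells of one type and less RNA per cell cannot be told apart.

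CHI3L1 is a secreted glycoprotein that binds chitin but has lost the enzyme activity of the chitinases, which cleave that polysaccharide. Macrophages, neutrophils, cartilage cells and many tumors make it, and it acts on growth, matrix remodeling and inflammation. Outside the cell it binds IL13RA2, a receptor for interleukin-13 with a short intracellular tail. TMEM219 joins IL13RA2 as a co-receptor and is also known as a receptor for IGFBP3. Galectin-3, the product of LGALS3, is a lectin that binds galactose-containing sugars and is another known partner of this receptor complex.

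The libraries held between 18749813 and 21550812 counted reads. On the first principal component of log2 CPM, with 51.3% of the variance, the diets lay apart. On the second, with 14.7%, HiGI tumors 26 (-55.1) and 16 (35.7) lay at opposite ends, with the other tumors from -9.4 to 14.2. Tumor 26 lay farthest from the rest, and its values are therefore named wherever a result rests on it. Levels below are CPM, in which the counts of a library are scaled to a common total so that libraries of different depth can be compared, after TMM scaling (factors 0.964 to 1.03), and they are not compared between genes because gene lengths were not used here.

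CHI3L1 was read in every HiGI tumor and in no LoGI tumor. It had 557 reads in HiGI tumor 16, 176 in tumor 20 and 72 in tumor 26, against 0 in each of LoGI tumors 19, 27 and 28. The LoGI libraries together gave 0 CHI3L1 reads among 60319160 counted reads. A count of 0 allows up to 3 reads in a library, which is between 0.139 and 0.158 CPM of its total. The limit covers counting error alone and not the spread between animals, and the reads carried no molecular tags.

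In normalized terms the HiGI level of CHI3L1 was 12.7 ± 11.4 CPM (SD, n = 3). Set against the mean of the 3-read limits of the LoGI libraries, the HiGI mean was 83.9-fold higher. Each HiGI tumor taken alone also lay above that limit, 169-fold for tumor 16, 57.7-fold for tumor 20 and 25.2-fold for tumor 26. Without tumor 16 the fold from the HiGI mean was 41.5. These folds set the LoGI level at its limit and leave out the counting error of the HiGI tumors and the spread between them. The log2 fold change fitted by edgeR was -11.00 (n = 3 per diet), and it was -7.01 with a prior count of 2. It depends on the prior count because the LoGI tumors have no reads, so no standard error is given for it.

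**Figure D1:**
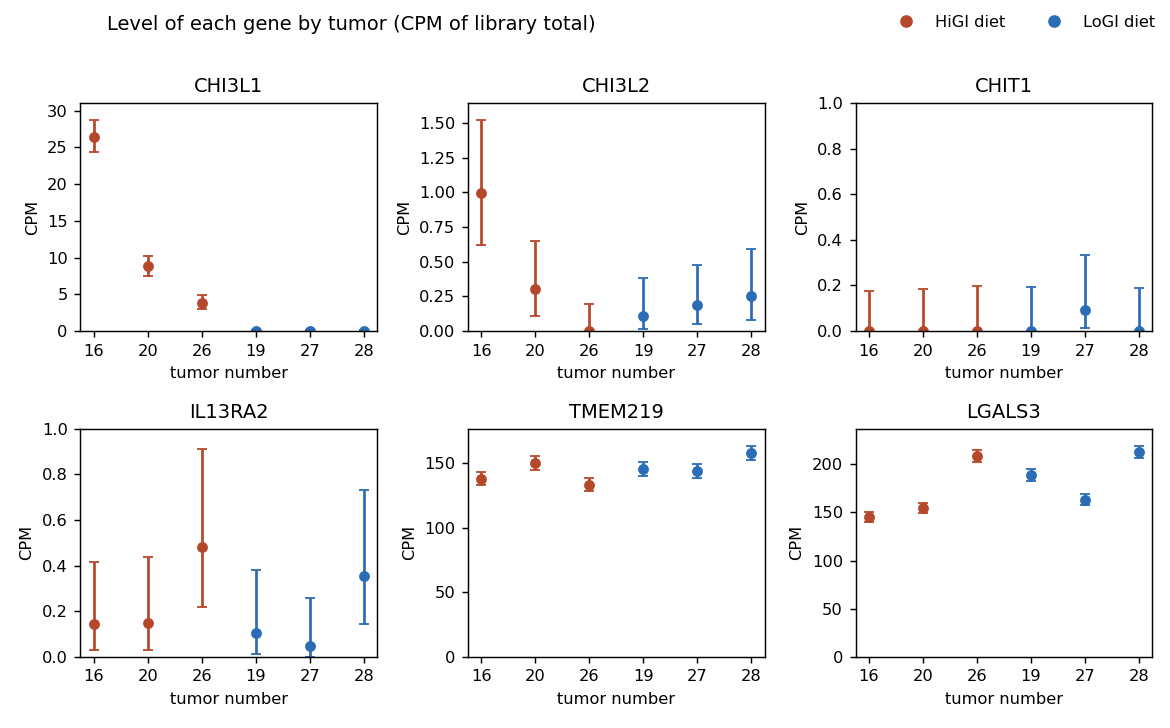
Level of each of the 6 genes in CPM before TMM scaling (y axis, from 0) in each tumor (x axis, tumor number), with HiGI tumors in red and LoGI tumors in blue. Bars are 95% Clopper-Pearson intervals of the share of reads. CHI3L1 runs from 26.5 to 3.84 in the HiGI tumors and is at 0 in the LoGI tumors, while the diets overlap for each of the other 5 genes.

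Tumor 16 carried 69.2% of the 805 reads, tumor 20 carried 21.9% and tumor 26 carried 8.94%. In CPM before TMM scaling the levels were 26.5 (95% Clopper-Pearson interval 24.3 to 28.7), 8.80 (7.55 to 10.2) and 3.84 (3.00 to 4.84). These intervals cover counting error only and say nothing of the spread between animals. The coefficient of variation over the 3 HiGI tumors was 89.7%. After normalization tumor 16 held 6.69 times the level of tumor 26.

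Most other genes varied less between the HiGI tumors. Among 17797 tested genes with a mean of at least 10 reads over the HiGI tumors, 36 had a larger coefficient of variation than CHI3L1, and the median was 11.3%. In the edgeR fit over all 6 tumors the biological coefficient of variation of CHI3L1, which is drawn towards that of other genes, was 39.6%, and 10.5% of all genes tested had a larger one. The falling order from tumor 16 through 20 to 26 was shown by 3203 of the 17797 genes. This comparison was chosen after the values were seen and is a description of 3 tumors.

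**Figure D2:**
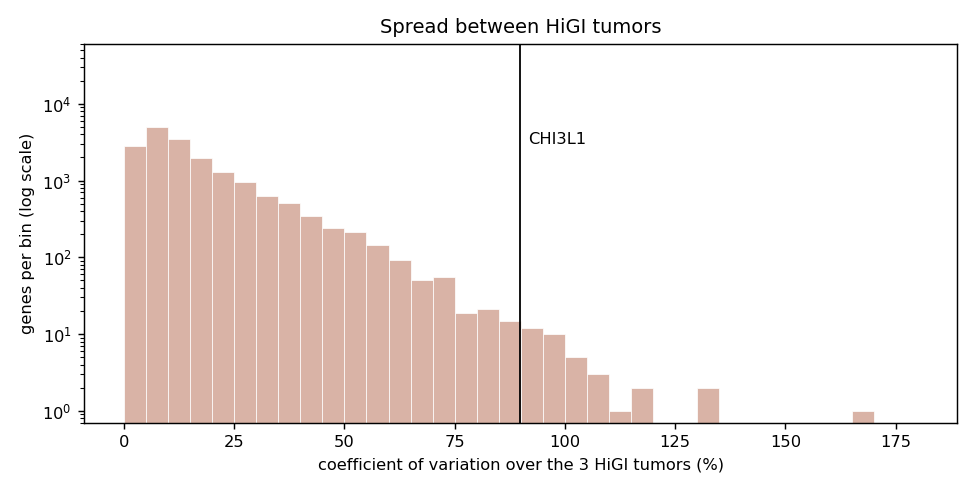
Number of genes (y axis, log scale) by coefficient of variation of the normalized level over the 3 HiGI tumors (x axis, percent), for the 17797 tested genes with a mean of at least 10 reads over those tumors. The line marks CHI3L1 at 89.7%, with 36 genes above it.

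The genes most like CHI3L1 were sought by Pearson correlation of log2 CPM (prior count of 2) over the 6 tumors. The points fall into the 2 diets, so the measure mostly reflects that split, and it is given as a description. Among 16681 candidates, 66 had a correlation of at least 0.99. The closest was ENSG00000225206.10 (r = 0.999), with HiGI counts of 163 (tumor 16), 78 (tumor 20) and 32 (tumor 26) and LoGI counts of 0. Next was ENSG00000115267.9 (r = 0.999), with HiGI counts of 131, 83 and 64 in the same order and LoGI counts of 17, 18 and 17 (tumors 19, 27 and 28). Both had the order of the HiGI tumors that CHI3L1 had, which ranking by this correlation favors. The second was still read in LoGI tumors.

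None of the 5 related genes was called different between diets. A gene was called when its adjusted p was under 0.05 and its log2 fold change was 1 or more in either direction, in edgeR's quasi-likelihood test over 24545 genes with Benjamini-Hochberg adjustment. By this rule 3.45% of all genes tested were called, and 0 of the 4 related genes that had enough reads to be tested. At an unadjusted p under 0.05 the number was 0 of 4 with each of edgeR's quasi-likelihood and exact tests, the DESeq2 Wald test and limma-voom, and each called 0. Shares over all genes are not given for the unadjusted p or for the other tools. With 4 genes, a count of 0 lies near the 3.45% of all genes and does not show that they were unchanged. For 18.5% of genes tested the normalized values of the diets did not overlap, which held for 0 of the 4 related genes tested.

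Among the relatives, CHI3L2 makes another secreted chitinase-like protein without enzyme activity. It had 21 reads in HiGI tumor 16, 6 in tumor 20 and 0 in tumor 26, against 2, 4 and 5 in LoGI tumors 19, 27 and 28. The LoGI values all lay inside the HiGI range. The order of the HiGI tumors was the one seen for CHI3L1, on far fewer reads, and 3203 of the 17797 genes above also showed it.

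The normalized level of CHI3L2 was 0.421 ± 0.494 CPM in HiGI and 0.185 ± 0.0789 in LoGI tumors (SD, n = 3 each). The log2 fold change of LoGI over HiGI was -1.20 (DESeq2 standard error 1.01), with an adjusted p of 0.647 in edgeR's quasi-likelihood test. The sign rested on tumor 16, since the log2 fold change was 0.27 without it. In limma-voom the log2 fold change was -0.13, far nearer to 0, with a 95% interval from -2.34 to 2.08.

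CHIT1, the active chitinase made by macrophages, was close to unread. Its only 2 reads came from LoGI tumor 27, and the other 5 tumors had 0. Both diets were at or under the 3-read limit in every library, so no fold is given, and the gene did not enter the test. A difference between diets was not detectable in these counts, and transcripts of the host's own macrophages were not their target.

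IL13RA2, the receptor that binds CHI3L1, was also read at the edge of detection. HiGI tumors 16 and 20 had 3 reads each and tumor 26 had 9, against 2 reads in LoGI tumor 19, 1 in tumor 27 and 7 in tumor 28. Tumor 26 among the HiGI and tumor 28 among the LoGI tumors were above the rest. CHI3L1 was lowest among the HiGI tumors in tumor 26, but on so few reads no relation between the genes is drawn.

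The normalized level of IL13RA2 was 0.255 ± 0.193 CPM in HiGI and 0.173 ± 0.171 in LoGI tumors (SD, n = 3 each). The log2 fold change was -0.54 (DESeq2 standard error 1.05), with an adjusted p of 0.871 in edgeR's quasi-likelihood test. The value moved with single tumors of either diet, to 0.24 without HiGI tumor 26, to -0.07 without LoGI tumor 27 and to -1.67 without LoGI tumor 28. In limma-voom it was -0.66, with a 95% interval from -2.31 to 1.0.

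**Figure D3:**
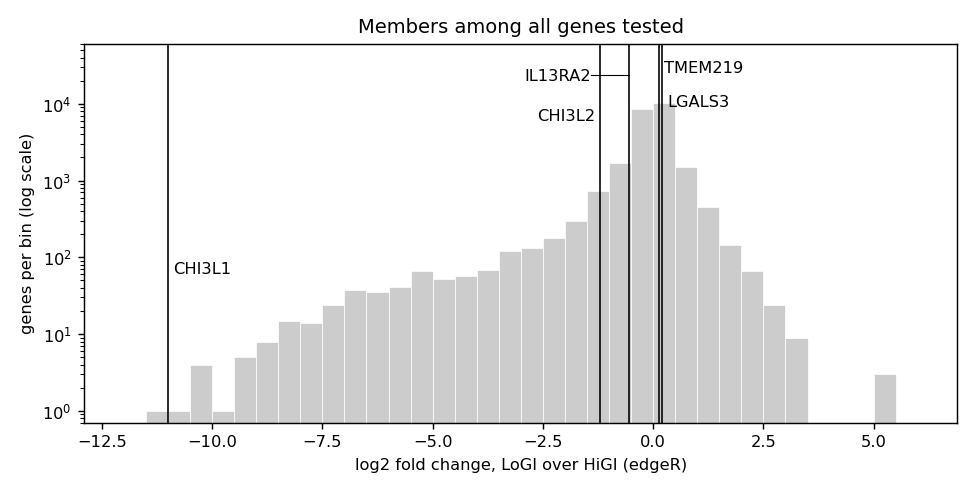
Number of genes tested (y axis, log scale) by log2 fold change of LoGI over HiGI tumors from edgeR (x axis), over 24545 genes in bins of 0.5. Lines mark the 5 of the 6 genes that were tested: CHI3L1 at -11.00 near the left end, CHI3L2 at -1.20, IL13RA2 at -0.54, TMEM219 at 0.13 and LGALS3 at 0.19.

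TMEM219, the co-receptor, was well read and varied little. Among HiGI tumors it had 2899 reads in tumor 16, 2995 in tumor 20 and 2498 in tumor 26, and among LoGI tumors 2758 in tumor 19, 3097 in tumor 27 and 3116 in tumor 28. The diets overlapped, with HiGI tumor 20 above LoGI tumors 19 and 27 after normalization. LoGI tumor 28 was the highest of the 6, and the highest level was 1.23 times the lowest.

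The normalized level of TMEM219 was 138 ± 9.24 CPM in HiGI and 151 ± 10.9 in LoGI tumors (SD, n = 3 each). The log2 fold change was 0.13 (DESeq2 standard error 0.10), with an adjusted p of 0.635 in edgeR's quasi-likelihood test. The biological coefficient of variation estimated by edgeR, the spread between tumors beyond counting error, was 8.40% for TMEM219 against a median of 16.5% over all genes tested. In limma-voom the log2 fold change was also 0.13, with a 95% interval from -0.06 to 0.31, which is 0.962 to 1.24 times the HiGI level. HiGI tumors 16 and 26, which differed 6.69 times in CHI3L1, had TMEM219 levels of 133 CPM in both. Tumor 20, between them in CHI3L1, had 149 CPM, and no relation between the genes is drawn.

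LGALS3, which encodes galectin-3, was also well read. Its HiGI counts were 3048 in tumor 16, 3090 in tumor 20 and 3911 in tumor 26, and its LoGI counts were 3588 in tumor 19, 3517 in tumor 27 and 4203 in tumor 28. The 2 highest normalized levels were in LoGI tumor 28 and HiGI tumor 26, and the 2 lowest in HiGI tumors 16 and 20. Within the HiGI tumors the order was the reverse of that of CHI3L1, and tumor 16 had 0.674 times the LGALS3 level of tumor 26. The share of all genes with this reverse order is not given, and so few tumors allow few orders, so no relation is drawn.

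The normalized level of LGALS3 was 167 ± 35.9 CPM in HiGI and 191 ± 28.2 in LoGI tumors (SD, n = 3 each). The log2 fold change was 0.19 (DESeq2 standard error 0.14), with an adjusted p of 0.635 in edgeR's quasi-likelihood test. In limma-voom it was 0.20, with a 95% interval from -0.08 to 0.49, or 0.946 to 1.40 times the HiGI level. Single tumors of either diet moved the edgeR value. It was 0.38 without HiGI tumor 26 (adjusted p = 0.0914), 0.08 without HiGI tumor 16 (adjusted p = 0.878) and 0.08 without LoGI tumor 28 (adjusted p = 0.88), and none of these fits by edgeR passed.

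LGALS3 can also be set against TMEM219 inside each library, which needs no scaling between libraries. There were 1.05, 1.03 and 1.57 LGALS3 reads for each TMEM219 read in HiGI tumors 16, 20 and 26, and 1.30, 1.14 and 1.35 in LoGI tumors 19, 27 and 28. The LoGI tumors lay between the HiGI tumors on this ratio. HiGI tumor 26 was the highest of the 6.

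**Figure D4:**
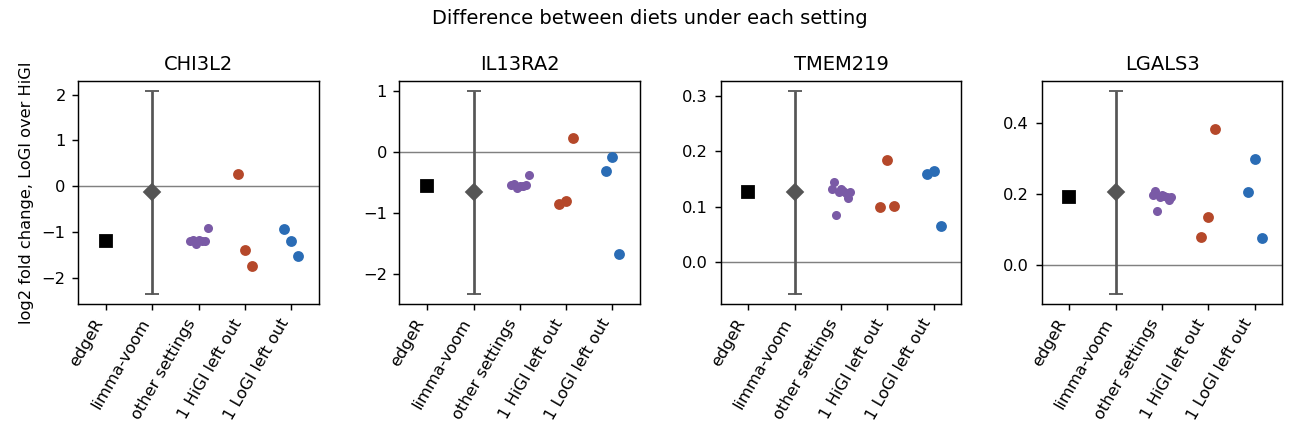
Log2 fold change of LoGI over HiGI tumors (y axis, its own scale in each panel) for the 4 related genes that were tested, from edgeR (square), limma-voom with its 95% interval (diamond), other normalizations, filters, tests and prior counts (purple), and with 1 HiGI (red) or 1 LoGI (blue) tumor left out. CHI3L2 and IL13RA2 each cross 0 when 1 HiGI tumor is left out, and TMEM219 and LGALS3 stay between 0.07 and 0.38.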

How the data were processed

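Total RNA of 6 xenograft tumors was sequenced as single-end reads of 75 bp from stranded mRNA libraries. The authors used BBMap against both the human and the mouse genome to discard mouse-specific reads, then ran STAR and RSEM on the remaining reads with human build GRCh38.p13. The deposited values are whole-number read counts for each gene, not normalized. How RSEM estimates were made whole is not given in the sources used here. Diets came from the sample records and columns were matched by name, with 0 left unmatched. Replicates were tumors of different mice.

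Genes with at least 10 reads over the 6 tumors were fitted after TMM normalization by edgeR 4.0.16 in R 4.3.3 (glmQLFit, glmQLFTest, Benjamini-Hochberg over all of them). Standard errors came from DESeq2 1.42.0 and intervals of differences from limma 3.58.1 (voom), the latter added after seeing the data. The fits were also run on simulated counts, in which only genes with more reads than CHI3L2 or IL13RA2 were changed. That run does not cover genes read so little, or genes unread on a whole diet.

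The members and lists were chosen with earlier results of these data known. Genes named were the 6 members and, by rule, those most correlated with CHI3L1 among genes whose lowest HiGI count was 10 or more. Members' names came with the identifiers. The name table at hand held 0 human identifiers, so planned lists of pathway genes and cell type markers were not analysed here, and human coordinates, lengths and sequences were not used here. Alternatives were DESeq2 size factors, upper-quartile and library-total normalization, the DESeq2 Wald test, edgeR's exact test, 3 other filters on reads, no minimum fold, a prior count of 2, limma-voom and leaving out each tumor.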

Additional observations from a re-analysis of the deposited data

How the results depend on the processing

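No related gene was called under any alternative that was run, so the count stayed at 0. With so few genes tested, this does not show that they were unchanged. Of the 5 related genes, only TMEM219 and LGALS3 could be fitted with at least 10 reads in every tumor or with filterByExpr, and CHI3L1 could be fitted with the latter. Leaving out HiGI tumor 16 turned the log2 fold change of CHI3L2 to 0.27, and leaving out HiGI tumor 26 turned that of IL13RA2 to 0.24. Over the 6 fits that each left out 1 tumor these ran from -1.75 to 0.27 and from -1.67 to 0.24, and TMEM219 ran from 0.07 to 0.18 and LGALS3 from 0.08 to 0.38. Over all alternatives the smallest adjusted p was 0.189 for CHI3L2, 0.501 for IL13RA2, 0.505 for TMEM219 and 0.0914 for LGALS3, and the largest were 0.976, 0.99, 0.828 and 0.880. The CHI3L1 value of -11.00 was -7.01 with a prior count of 2 and -8.60 with limma-voom, which handle a diet without reads differently. The fold of its HiGI mean over the LoGI limit, 83.9, ran from 41.5 to 113 with 1 HiGI tumor left out. From single HiGI tumors it was 169 (tumor 16), 57.7 (tumor 20) and 25.2 (tumor 26). These folds make no allowance for the spread between HiGI tumors and were added after seeing the data. Alternatives planned for pathway lists were not run, since the lists could not be looked up. Few reads limit CHI3L2, CHIT1 and IL13RA2, with 38, 2 and 25 reads in all.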
